A study of Homo sapiens with 2 samples.

Results

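The zinc finger genes of human chromosome 19 were examined for peaks of RUNX2 and MTA1. They were chosen by name alone, as the protein-coding genes of chromosome 19 whose RefSeq symbol is ZNF or ZFP followed by a digit. This gave 255 genes among 19866 protein-coding genes, of which 1155 others lie on chromosome 19 and 283 with such symbols lie on other chromosomes. Of them 5 carry a ZFP symbol. The rule itself uses no peak.

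The peaks came from CUT&Tag, in which an antibody guides a transposase to cut the DNA around its target, in untreated MDA-MB-231 cells, an established triple-negative breast cancer line. RUNX2 is a transcription factor of bone development, and MTA1 is a subunit of the NuRD complex, which remodels nucleosomes and removes acetyl groups from histones. There was 1 library per antibody and no control library was analysed here, so no comparison has a replicate check and no p-value was computed. The RUNX2 list held 61717 peaks, 2773 of them on chromosome 19, and the MTA1 list held 42698, of which 2169 were on chromosome 19. MDA-MB-231 is known to lack the CDKN2A locus, and neither list had a peak inside CDKN2A or within 50 kb of it, beside 2746 RUNX2 and 1771 MTA1 peaks on the rest of chromosome 9.

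Most zinc finger genes of this chromosome encode proteins with a row of C2H2 fingers, each of which grips a few bases of DNA, and many carry a KRAB domain. The KRAB domain binds TRIM28, which brings the histone methyltransferase SETDB1 and HP1 proteins, and this machinery is best known for silencing retroelements. The genes multiplied by tandem duplication and still stand side by side in clusters, where neighbours share much of their sequence. A few, such as ZFP36, have the name but another kind of finger.

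A gene was counted as having a peak when a peak came within 1 kb of either end of the gene. The score is the value in the fifth column of the peak lists, and a rank is the percentage of peaks in the same list with a lower score. Intervals are 95% intervals over genes and cover counting error only, and genes that share a peak or a duplicated sequence are not independent.

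The promoters that best show the range of the results are printed from 250 bases before the start to 50 after it, on the strand of the gene, from RefSeq with the build GRCh38.p14. CpG dinucleotides are in capitals. ZNF8 (chr19:58278705-58279004, plus strand, 26 CpG) had the highest RUNX2 score within 1 kb of a gene end, and ZNF576 (chr19:43596142-43596441, plus strand, 25 CpG) the highest MTA1 score there. ZNF564 (chr19:12551433-12551732, minus strand, 13 CpG) and ZNF91 (chr19:23395422-23395721, minus strand, 11 CpG) had both peaks at CpG-poor promoters. ZNF382 (chr19:36605063-36605362, plus strand, 27 CpG) and ZNF677 (chr19:53254774-53255073, minus strand, 34 CpG) had neither peak at CpG-rich ones.
ZNF8: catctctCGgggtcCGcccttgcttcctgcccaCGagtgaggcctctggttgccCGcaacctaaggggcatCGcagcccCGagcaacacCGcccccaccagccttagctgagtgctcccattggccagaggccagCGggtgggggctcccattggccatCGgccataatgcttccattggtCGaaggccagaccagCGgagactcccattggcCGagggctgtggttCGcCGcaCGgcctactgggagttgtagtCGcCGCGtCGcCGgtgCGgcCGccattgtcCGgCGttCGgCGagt
ZNF576: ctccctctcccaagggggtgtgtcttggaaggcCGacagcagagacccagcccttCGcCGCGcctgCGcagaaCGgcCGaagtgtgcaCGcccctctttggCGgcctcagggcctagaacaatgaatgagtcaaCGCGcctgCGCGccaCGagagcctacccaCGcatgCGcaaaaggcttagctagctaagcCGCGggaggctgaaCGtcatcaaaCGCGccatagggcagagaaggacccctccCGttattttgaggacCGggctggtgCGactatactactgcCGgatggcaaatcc
ZNF564: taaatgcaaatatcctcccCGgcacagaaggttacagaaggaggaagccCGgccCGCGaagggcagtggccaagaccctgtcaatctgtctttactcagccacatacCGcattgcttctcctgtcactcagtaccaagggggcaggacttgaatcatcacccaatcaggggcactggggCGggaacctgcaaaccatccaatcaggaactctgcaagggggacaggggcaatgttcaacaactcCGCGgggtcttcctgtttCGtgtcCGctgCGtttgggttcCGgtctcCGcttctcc
ZNF91: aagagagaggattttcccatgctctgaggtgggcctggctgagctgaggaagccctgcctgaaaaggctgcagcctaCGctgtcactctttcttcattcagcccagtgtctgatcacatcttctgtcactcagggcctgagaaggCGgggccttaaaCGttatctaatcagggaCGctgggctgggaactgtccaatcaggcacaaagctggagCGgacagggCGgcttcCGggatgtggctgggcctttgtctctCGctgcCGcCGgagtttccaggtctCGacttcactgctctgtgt
ZNF382: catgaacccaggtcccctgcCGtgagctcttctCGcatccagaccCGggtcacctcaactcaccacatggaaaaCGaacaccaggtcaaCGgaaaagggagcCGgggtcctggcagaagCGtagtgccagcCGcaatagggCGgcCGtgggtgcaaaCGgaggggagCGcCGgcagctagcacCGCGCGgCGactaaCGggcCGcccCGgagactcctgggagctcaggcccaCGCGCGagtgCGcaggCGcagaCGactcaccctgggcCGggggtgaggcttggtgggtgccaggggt
ZNF677: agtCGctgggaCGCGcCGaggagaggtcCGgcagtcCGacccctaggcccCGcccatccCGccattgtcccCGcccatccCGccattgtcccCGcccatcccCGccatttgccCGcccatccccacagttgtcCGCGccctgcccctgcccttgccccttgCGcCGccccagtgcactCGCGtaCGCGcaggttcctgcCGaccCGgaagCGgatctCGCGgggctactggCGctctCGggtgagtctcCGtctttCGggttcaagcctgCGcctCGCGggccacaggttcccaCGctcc

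Most zinc finger genes had a peak of each protein at an end. RUNX2 peaks lay at 150 of the 255 genes (58.8%, 52.5 to 64.9) and MTA1 peaks at 166 (65.1%, 58.9 to 70.9). Both were present at 141 genes (55.3%, 49.0 to 61.5) and neither at 80 (31.4%). Only RUNX2 was found at 9 genes (3.53%) and only MTA1 at 25 (9.80%). Among the other protein-coding genes of chromosome 19, neither was present at 39.8%, only RUNX2 at 6.75% and only MTA1 at 6.32%. Among all protein-coding genes these shares were 42.7%, 6.01% and 7.11%. Zinc finger genes minus the other chromosome 19 genes gave -3.22 points for only RUNX2 (-5.53 to 0.0867) and 3.48 points for only MTA1 (0.0387 to 7.93).

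The background on the same chromosome was lower for MTA1. Among the other protein-coding genes of chromosome 19, RUNX2 was present at 53.9%, MTA1 at 53.4% and the pair at 47.1%, and among all protein-coding genes the shares were 50.2%, 51.3% and 44.2%. The MTA1 share of the zinc finger genes was 11.7 percentage points above that of the other chromosome 19 genes, with an interval up to 18.0 that excludes 0, and the share with both was 8.19 points above (1.41 to 14.8). The RUNX2 share was 4.97 points above, with an interval from -1.79 to 11.5 that includes 0. The RUNX2 difference turned negative when peaks below the median score were left out (-7.43 points), with the 10000 highest-scoring peaks alone (-16.9 points), without peaks of the narrowest width (-1.07 points) and with a window of 3 kb (-1.13 points). It was larger, with intervals above 0, within 500 bp (8.37 points, 1.59 to 15.0), with genes on alternate sequences included (6.82 points, 0.0710 to 13.3) and among genes with no other gene end within 2 kb (19.5 points, 9.65 to 28.8). Of the alternatives tried, the MTA1 difference turned negative only with the 10000 highest-scoring peaks (-1.72 points, -8.01 to 4.93), and with a window of 3 kb it fell to 3.66 points with an interval that includes 0 (-2.82 to 9.65). Without the tandem families among the other genes, the differences were 1.11 points for RUNX2 (-5.69 to 7.70) and 6.91 points for MTA1 (0.202 to 13.3).

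The namesakes on other chromosomes were not distinguishable from the chromosome 19 genes by these intervals. RUNX2 peaks lay at 180 of these 283 genes (63.6%) and MTA1 peaks at 186 (65.7%). Chromosome 19 genes minus these namesakes gave -4.78 points for RUNX2 (-12.9 to 3.44) and -0.626 points for MTA1 (-8.65 to 7.36), and both intervals include 0.

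The RUNX2 peaks of the zinc finger genes stood lower in their list than those of the other genes of the chromosome. The 150 genes were served by 143 distinct best peaks, since some genes share an end, as read-through entries such as ZNF559-ZNF177 do. At the 150 genes with a RUNX2 peak the highest score ran from 3.14 to 49.3 with a median of 8.31. The median rank was 61.0 (quartiles 31.9 and 77.7), against 83.6 at the other chromosome 19 genes and 71.4 at all protein-coding genes. At the namesakes on other chromosomes the median RUNX2 rank was 68.6. Of the 150 genes, 57 (38%) fell in the lower part of the list, below rank 50. This share was 18.5% among the other chromosome 19 genes with a peak and 25.6% among the namesakes with one. Peaks of the narrowest width, 99 bp, were the best RUNX2 peak at 28 genes (18.7%), against 8.20% of the others and 13.3% of the namesakes.

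MTA1 peaks at the same family stood higher in their list. The highest MTA1 score ran from 3.02 to 72.0 with a median of 15.4. The median rank was 80.6 (56.8 and 90.5), against 89.6 at the other chromosome 19 genes and 75.2 at all protein-coding genes. The zinc finger genes thus lay below all protein-coding genes in median RUNX2 rank and above them in median MTA1 rank. The namesakes on other chromosomes lay on the same sides, with medians of 68.6 and 76.1, so this is not particular to chromosome 19.

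**Figure D1:**
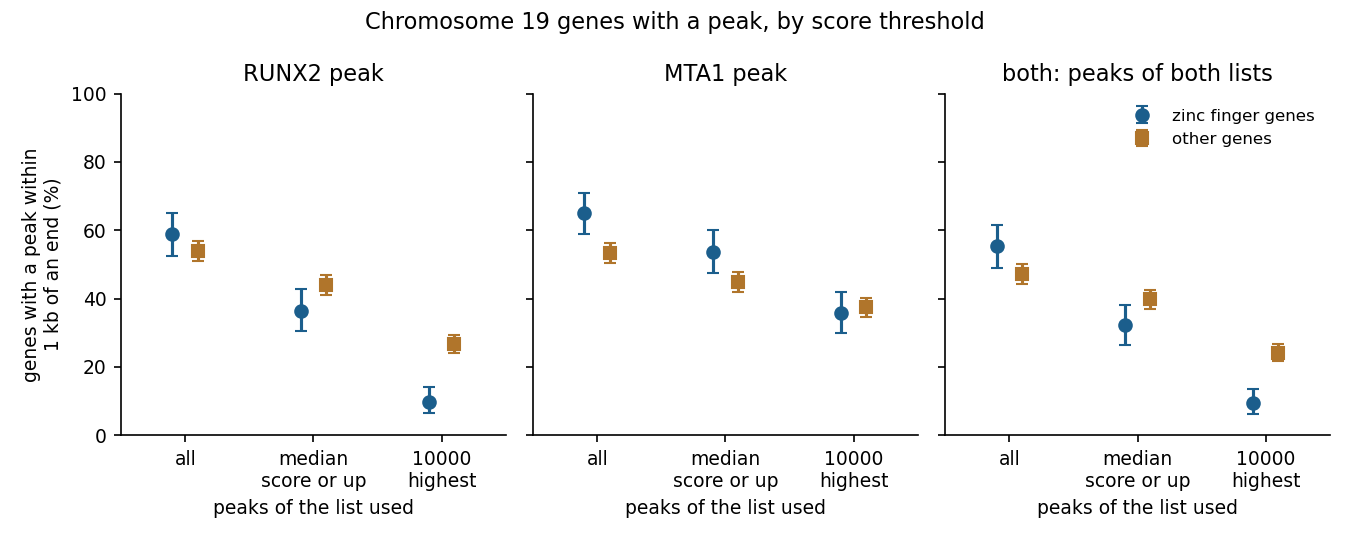
Percentage of genes with a peak within 1 kb of an end (vertical axis) for 3 sets of peaks, with zinc finger genes of chromosome 19 beside the other protein-coding genes of the chromosome; bars are exact 95% intervals over genes. For RUNX2 the zinc finger share falls from 58.8% with all peaks to 36.5% and 9.80%, while the other genes go from 53.9% to 43.9% and 26.7%.

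Raising the threshold separated the proteins further. Once peaks scoring below the median of their list were dropped, RUNX2 was found at 93 zinc finger genes (36.5%) and at 43.9% of the other genes, while MTA1 was found at 137 (53.7%) and at 44.9%. When each list was cut to its 10000 best peaks, RUNX2 was found at 25 zinc finger genes (9.80%) against 26.7% of the others, and MTA1 at 91 (35.7%) against 37.4%. These 10000 peaks are a larger part of the shorter MTA1 list, so the cut is less strict there.

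The peaks of both proteins mostly covered the same DNA. Of the zinc finger genes with a RUNX2 peak 94.0% also had MTA1, and of those with MTA1 84.9% also had RUNX2. These shares were 87.5% and 88.2% at the other chromosome 19 genes, and 88.0% and 86.2% at all protein-coding genes. Such sharing was thus general to the lists. At 121 of the 141 genes with both (85.8%) the highest-scoring peaks overlapped, against 90.6% at the other chromosome 19 genes with both. The MTA1 rank was the higher of the pair at 113 genes (80.1%), against 69.3%. Over the 141 genes Spearman's rho of the scores was 0.647, a description across genes, which are not replicates, from 2 libraries of the same cell line, and it was 0.669 over the 544 other genes.

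**Figure D2:**
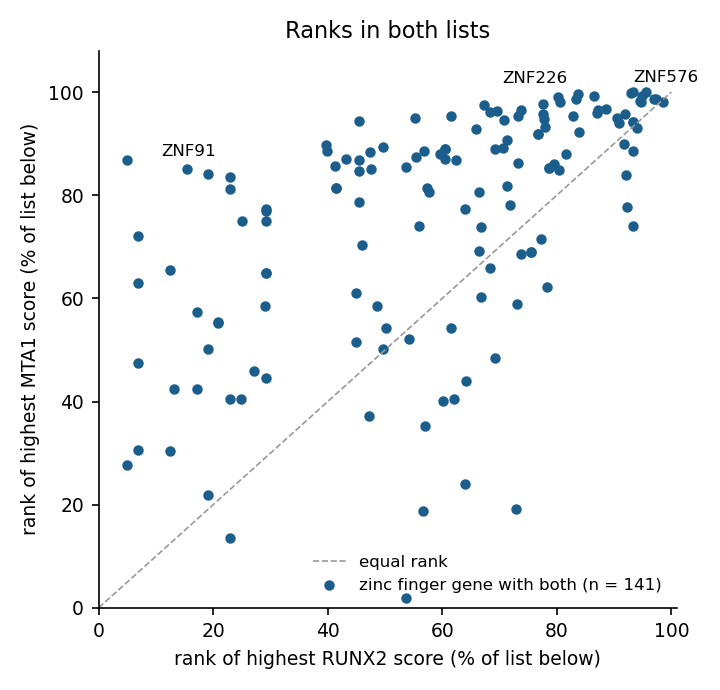
Rank of the highest MTA1 score (vertical axis, percentage of the MTA1 list below) against the rank of the highest RUNX2 score (horizontal axis, percentage of the RUNX2 list below), with 1 point for each of the 141 zinc finger genes with both peaks and a dashed line of equal rank. At 113 genes the point lies above the line; ZNF91 has a RUNX2 rank of 15.3 and an MTA1 rank of 85.1.

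The strongest peaks within 1 kb of an end came from several clusters. ZNF8 had the highest RUNX2 score there, 49.3 (rank 98.5), in a peak at chromosome 19, 58278601 to 58278992, and its MTA1 score was 39.0 (rank 98.0). ZNF627 scored 41.4 for RUNX2 and 43.1 for MTA1, in peaks at 11597242 to 11597556 and 11597226 to 11597567. ZNF221 scored 39.6 and 43.1. These 3 genes had the highest mean rank over the lists.

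ZNF576 had the highest MTA1 score within 1 kb of an end, 72.0, in a peak at 43596037 to 43596574, with a RUNX2 score of 34.1. ZNF584 followed with an MTA1 score of 70.5 and a RUNX2 score of 28.7, and ZNF787 with 62.8 and 27.7. ZNF473, a protein of histone pre-mRNA processing, scored 50.3 for MTA1 and 32.4 for RUNX2. In ZNF226 the proteins differed more, with an MTA1 score of 56.9 (rank 99.7) and a RUNX2 score of 17.0 (rank 83.6). ZNF837, ZNF146, which is made of little but fingers, and ZNF548 had MTA1 scores of 48.9, 46.3 and 43.5 beside RUNX2 scores of 19.4, 14.6 and 16.8. ZNF414, ZNF557 and ZNF564 completed the highest RUNX2 scores with 31.6, 31.2 and 30.1, beside MTA1 scores of 39.2, 40.9 and 25.7.

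Inside genes and more than 1 kb from both ends, RUNX2 scored higher still at ZNF792 (69.7, rank 99.7) and ZNF302 (57.0, rank 99.1), where MTA1 scored 15.8 and 15.6. MTA1 also had strong peaks inside genes without MTA1 at an end. Examples are ZNF225 (53.4, rank 99.5), ZNF507 (49.5, rank 99.3) and ZNF574 (44.8, rank 98.8), where RUNX2 scored 25.9, 41.9 and 34.1 inside. ZNF507 counts as having RUNX2 only, and the other genes of this paragraph as having no peak at an end. All were named after their values were seen.

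Genes with a single protein at an end had lower scores there. The highest RUNX2 scores without MTA1 were those of ZNF562 (12.7), ZNF431 (6.73) and ZNF350 (5.22), whose protein is a partner of BRCA1. The highest MTA1 scores without RUNX2 were those of ZNF45 (17.8), ZNF234 (17.1) and ZNF571 (17.1).

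The members of known role listed in this paragraph had both peaks at an end, with RUNX2 ranks from 15.3 to 78.0. Of the other members of this choice, ZNF473 is given above and those with neither peak follow in the next paragraph. ZNF91, which silences SVA elements, had a RUNX2 score of 4.42 (rank 15.3) at 23395354 to 23395626 and an MTA1 score of 18.1 (rank 85.1) at 23395390 to 23395686. ZNF93, which silences LINE-1 elements, scored 6.02 and 9.32, and ZNF43 scored 5.11 and 7.14 in peaks that did not overlap. ZNF274, which recruits SETDB1 to zinc finger genes themselves, scored 10.7 and 22.9. ZNF304 scored 7.26 and 19.7, and ZNF160 scored 13.5 and 26.0.

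Neither protein had a peak within 1 kb of the ends of ZNF331, ZNF382, ZNF568, ZNF677 and ZFP36. ZNF382, ZNF677 and ZNF331 are known from work on silencing in tumours, and ZFP36 encodes an RNA-binding protein that destabilises messenger RNA. ZNF382, ZNF568 and ZNF677 had 0 peaks inside the gene and 0 within 3 kb, in both lists. ZNF331, an imprinted gene with several promoters, held 4 RUNX2 and 2 MTA1 peaks inside, the highest an MTA1 score of 28.0 (rank 94.3). ZFP36 had 2 peaks of each list within 3 kb and 0 inside. Of the 80 genes with neither protein at an end, 31 held a RUNX2 peak inside, 26 an MTA1 peak, and 40 (50%) had no peak of either list inside or within 3 kb. The same counts were not made for other genes, so these have no background here.

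The peaks sat at the starts of the genes. Among the 222 zinc finger genes whose strand was known, RUNX2 lay within 1 kb of the start at 128 (57.7%) and MTA1 at 142 (64.0%), against 49.0% and 49.7% of the other chromosome 19 genes. At the far end, where the exon coding for the fingers usually lies, RUNX2 was found at 12 (5.41%) and MTA1 at 10 (4.50%), against 13.5% and 11.8%. The highest-scoring peak at the start was centred within 250 bp of it at 105 of 128 genes for RUNX2 (82.0%) and at 129 of 142 for MTA1 (90.8%), against 60.6% and 67.0%.

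**Figure D3:**
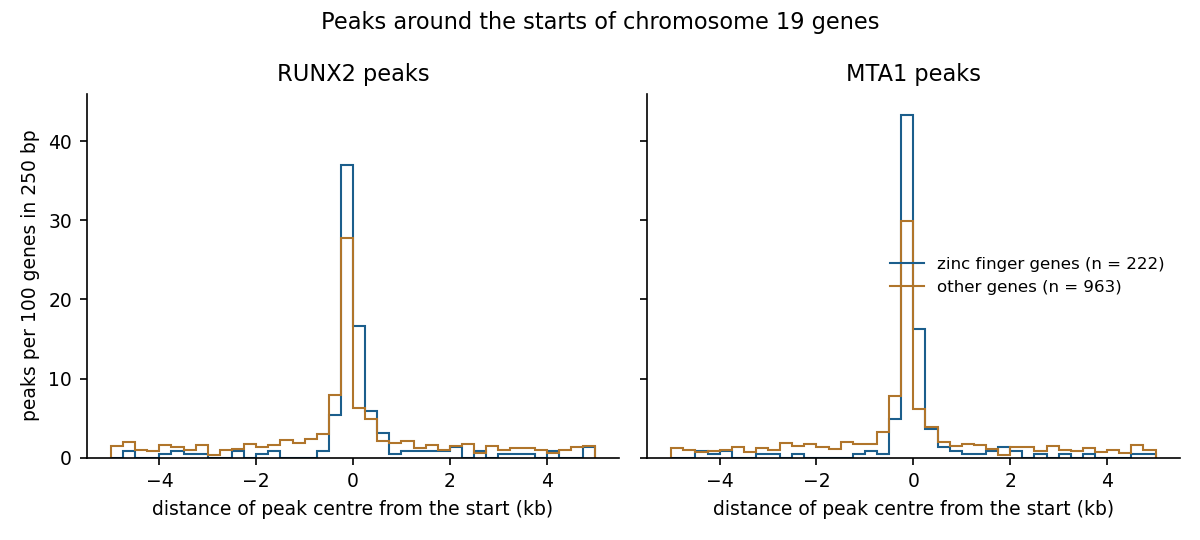
Peak centres per 100 genes in bins of 250 bp (vertical axis) by distance from the gene start in kb (horizontal axis, negative is upstream), for zinc finger genes (n = 222) and the other genes of chromosome 19 (n = 963). The bin just upstream of the start holds 36.9 RUNX2 and 43.2 MTA1 peaks per 100 zinc finger genes.

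Away from ends the zinc finger genes were sparse in peaks. Their bodies held 21.2 RUNX2 and 10.8 MTA1 peaks per Mb, against 50 and 38.6 in the bodies of the other genes and 29.0 and 18.4 between genes. Within 1 kb of their ends the density was 180 RUNX2 and 183 MTA1 peaks per Mb, against 157 and 151 at the ends of other genes. Of the peaks inside the spans of the clusters, 156 of 388 for RUNX2 (40.2%) and 158 of 288 for MTA1 (54.9%) were no more than 1 kb from a zinc finger gene's end.

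The share with a peak varied along the chromosome. With neighbours joined over gaps of up to 250 kb and at least 5 genes to a cluster, 234 genes formed 12 clusters and 21 were scattered. The short arm (84 genes) had RUNX2 at 57.1% and MTA1 at 67.9%, and the long arm (171 genes) at 59.6% and 63.7%. Clusters ranged from 1 of 5 genes for each protein between ZNF302 and ZNF792, where ZNF181 alone had peaks within 1 kb of an end (scores 26.4 and 17.3), to 6 of 7 for RUNX2 and 7 of 7 for MTA1 between ZNF628 and ZNF580. The low count between ZNF302 and ZNF792 holds for ends only, since ZNF302, ZNF30 and ZNF792 held both proteins inside the gene and ZNF599 held RUNX2. With so few genes the intervals of both clusters are wide, 0.505 to 71.6% and 42.1 to 99.6% for RUNX2.

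The cluster from ZNF737 to ZNF91, which holds many primate-specific genes, had the lowest shares among the larger clusters. RUNX2 lay at 10 of its 25 genes (40%, 21.1 to 61.3) and MTA1 at 12 (48%, 27.8 to 68.7). Its median RUNX2 rank was 23.1 and its highest RUNX2 score 6.88, at ZNF724. A run of 10 neighbours there had neither protein: ZNF208, ZNF257, ZNF676, ZNF729, ZNF98, ZNF492, ZNF99, ZNF723, ZNF728 and ZNF730. The next longest such run was of 4 genes, ZNF529, ZNF382, ZNF461 and ZNF567. How reads from near-identical copies were placed is not given in the sources used here, and its part in this run was not tested. Without this cluster the shares were 60.9% for RUNX2 and 67.0% for MTA1.

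In the other clusters with more than 12 genes the RUNX2 share ran from 56.1% to 67.4%. Between ZNF264 and ZNF446, RUNX2 lay at 29 of 43 genes (67.4%) and MTA1 at 32 (74.4%), with 8 neighbours in a row holding both, from ZNF264 to ZNF17, and another 7 from ZNF329 to ZNF584. Between ZNF575 and ZNF180, RUNX2 lay at 15 of 23 and MTA1 at 17 of 23, with a median MTA1 rank of 94.4. There 7 neighbours from ZNF221 to ZNF224 held both. Between ZNF175 and ZNF331 each protein lay at 23 of 41 genes, with a median RUNX2 rank of 41.5. Between ZNF653 and ZNF791 they lay at 16 and 19 of 25, and between ZNF565 and ZNF573 at 17 and 17 of 29. In the other clusters RUNX2 and MTA1 lay at 4 and 4 of 5 (ZNF554 to ZNF77), 8 and 9 of 12 (ZNF317 to ZNF846), 5 and 7 of 8 (ZNF101 to ZNF486) and 5 and 6 of 11 (ZNF787 to ZNF835).

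**Figure D4:**
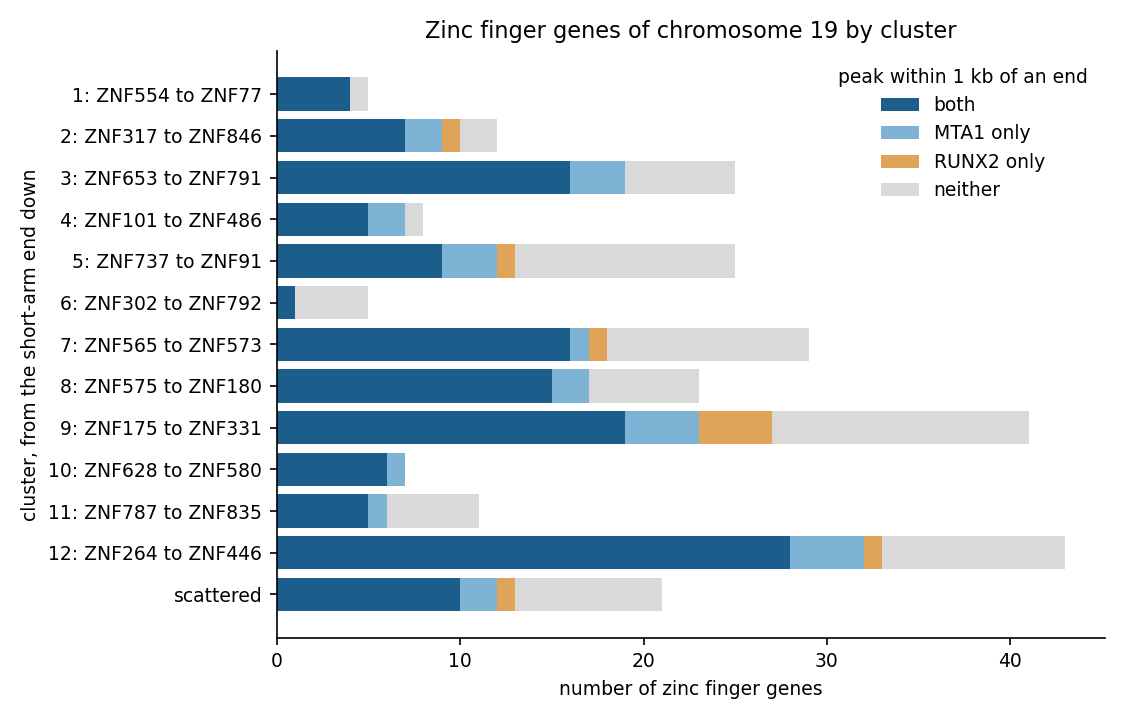
Number of zinc finger genes (horizontal axis) in each of the 12 clusters, from the short-arm end down, and among the 21 scattered genes. Stacked bars show genes with peaks of both proteins, of MTA1 only, of RUNX2 only or of neither within 1 kb of an end. In the cluster from ZNF737 to ZNF91, 9 of 25 genes had both and 12 had neither.

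Genes at the edges of clusters were set beside those inside. Among the 2 outermost genes at each side of the 12 clusters RUNX2 lay at 35 of 48 (72.9%) and MTA1 at 36 of 48 (75%). Among the 186 inner genes RUNX2 lay at 104 (55.9%) and MTA1 at 118 (63.4%). The difference was 17.0 points for RUNX2 (1.45 to 29.7) and 11.6 points for MTA1, whose interval from -3.72 to 23.9 includes 0. With only the first and last gene of each cluster as its edge, the differences were 17.4 points (-3.55 to 32.0) and 14.9 points (-5.70 to 28.3), and both intervals include 0. This comparison was chosen after the data were seen.

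CpG content related to the peaks differently here than in the rest of the chromosome. Promoters of chromosome 19 genes were put in 3 classes, with fewer than 14, 14 to 26, and 27 or more CpG in the 300 bases. The start in the promoter table is not always the outer gene end used for the peaks. At ZNF43 the promoter lies at 21836133 to 21836432 and the best MTA1 peak at 21852040 to 21852183. At such genes the CpG class and the peak belong to different starts, and their number was not counted. RUNX2 lay at 61.4%, 60.3% and 57.7% of the zinc finger genes in these classes (n = 44, 126 and 52) and at 28.7%, 60.5% and 75.9% of the other genes (n = 334, 276 and 353). MTA1 lay at 68.2%, 67.5% and 63.5% of the zinc finger genes and at 21.3%, 64.5% and 79.0% of the others. The other genes climbed over the classes, while the zinc finger shares stayed between 57.7% and 68.2%.

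In the class with the fewest CpG the zinc finger genes were 32.6 points higher for RUNX2 (17.0 to 46.3) and 46.9 points higher for MTA1 (31.5 to 59.4). In the class with the most CpG they were lower, by -18.2 points for RUNX2 (-32.4 to -4.92) and -15.6 points for MTA1 (-29.7 to -2.99). Among genes with no other gene end within 2 kb, the differences in that class were -14.2 points (-38.6 to 8.64) and -7.91 points (-33.1 to 13.4), and both intervals include 0. The RUNX2 difference in the class with the fewest CpG shrank to 2.19 points (-8.14 to 16.7) once peaks below the median score were dropped. The peaks at zinc finger genes of this class had a median rank of 44.9 for RUNX2 and 62.4 for MTA1. Of the promoters of this class printed above, ZNF91 ranked 15.3 and 85.1 and ZNF564 ranked 94.0 and 92.9. Leaving the tandem families of olfactory receptors, kallikreins and the like out of the other genes raised that class to 32.8% for RUNX2 and 26.8% for MTA1.

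**Figure D5:**
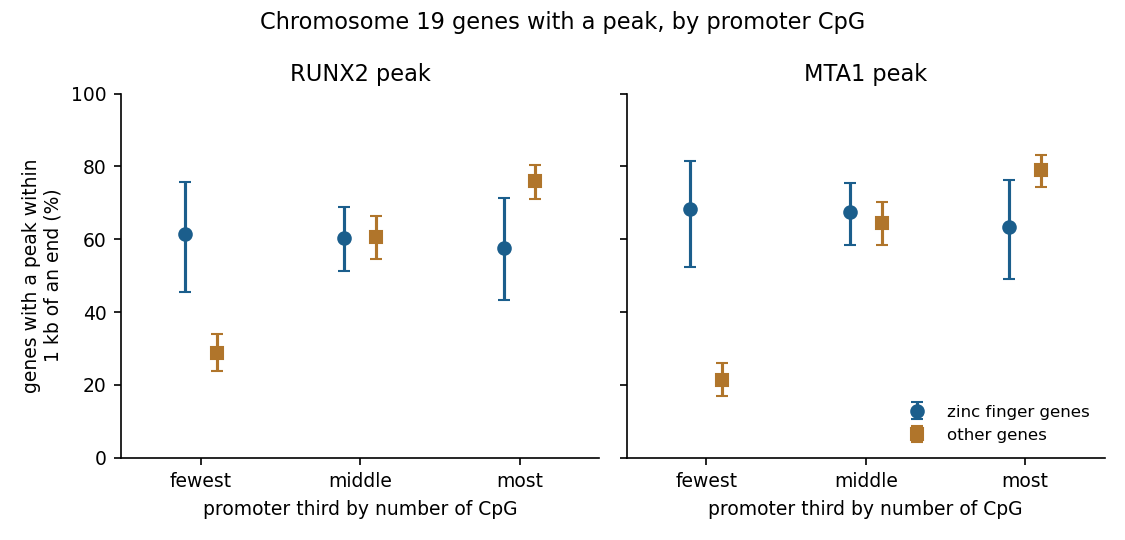
Percentage of genes with a peak within 1 kb of an end (vertical axis) by class of promoter CpG content (horizontal axis), for zinc finger genes and other genes of chromosome 19, RUNX2 and MTA1 in separate panels, with exact 95% intervals over genes. The other genes climb from 28.7% to 75.9% for RUNX2 and from 21.3% to 79.0% for MTA1, and the zinc finger genes stay between 57.7% and 68.2%.

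The RUNX core motif was no more frequent at zinc finger genes with a RUNX2 peak. TGTGGT or TGCGGT was sought on both strands of the 300 bases, and the latter word contains a CpG. Here too the sequence and the peak can belong to different starts of a gene. It was found in 39 of 222 zinc finger promoters (17.6%), in 21 of 133 with a RUNX2 peak (15.8%) and in 18 of 89 without (20.2%). The share was 18.1% in the other chromosome 19 genes and 19.6% of all 35116 promoters in the table. The other chromosome 19 genes went the same way, with 16.4% where RUNX2 had a peak and 20.1% where it had none. Among all protein-coding genes these shares were 19.4% and 17.8%. ZNF8, ZNF564 and ZNF382, printed above, each hold 1 match, and ZNF576, ZNF91 and ZNF677 hold 0.

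Shares were also set beside each other by the presence of a neighbouring gene. Where no other gene end lay within 2 kb, RUNX2 was found at 78 of 131 zinc finger genes (59.5%) and MTA1 at 87 (66.4%), against 40.0% and 36.8% of the other genes. Where one did, the zinc finger shares were 58.1% and 63.7%, and those of the other genes 61.2% and 62.3%.

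Peaks were also counted at the genes of the repressor machinery. TRIM28, which also lies on chromosome 19, had a RUNX2 score of 61.6 (rank 99.4) and an MTA1 score of 51.0 (rank 99.4). Of 15 genes of this machinery 11 had RUNX2 (73.3%, 44.9 to 92.2) and 13 had MTA1 (86.7%, 59.5 to 98.3), beside 50.2% and 51.3% of all protein-coding genes, and the RUNX2 interval includes the background. SETDB1 scored 20.4 and 23.2, the maintenance DNA methyltransferase DNMT1 10.8 and 47.8, the HP1 gene CBX5 26.1 and 41.7, and the histone H3.3 chaperone DAXX 37.4 and 54.3. CBX1, CBX3, ATF7IP and MORC2 also had both, with RUNX2 ranks from 69.5 to 92.3. MPHOSPH8 and TASOR, subunits of the HUSH silencing complex, ranked lower, at 41.0 and 43.2 for RUNX2 and 44.5 and 35.2 for MTA1. PPHLN1 and SMARCAD1 had MTA1 only, at ranks of 54.6 and 40.6, and UHRF1 and ATRX had neither.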

How the data were processed

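The deposited files are 1 peak list per antibody from CUT&Tag of MDA-MB-231 cells, and the authors' score of each peak is in the fifth column. The sources used here do not state the scale of that score. Per the labels, the processing notes name CASAVA 1.4, Bowtie 0.12.8, MACS and MACS2, and the build hg19. The methods and the labels name different antibody suppliers, and the library protocol in the labels describes end repair and adaptor ligation. No read depth is known, so precision is given only as counting error over genes.

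The peak positions were compared with RefSeq gene ends of GRCh38 at 2001 offsets from -1000 to 1000 kb. The share of chromosome 19 gene ends near a peak was highest at offset 0 (30.5% for RUNX2 and 30.7% for MTA1, against at most 14.1% and 12.3% at 10 kb or more), so gene positions of GRCh38 were used, with 718 genes on alternate sequences left out. Gene ends and names came from RefSeq. Strand came from the promoter table, which held 222 of the 255 genes. Proteins were not analysed here. Shares have exact Clopper-Pearson intervals, and differences have Newcombe intervals. No p-value, set test or random list was used. The members and lists were chosen with earlier results of these data known. Named genes were those with the highest scores in each list (8 each), with 1 protein only (3 each) or with the highest mean rank (3), genes of known role, and the first and last gene of each cluster. The differences by CpG class and between outermost and inner genes, their alternatives, and leaving out the cluster from ZNF737 to ZNF91 or hyphenated symbols were added after the data were seen. Overlaps were tested on simulated peaks. Tables were handled in Python 3.11.15 with pandas 2.3.3 and numpy 2.4.6, intervals came from scipy 1.17.1, and plots from matplotlib 3.10.9.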

Additional observations from a re-analysis of the deposited data

How the results depend on the processing

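The RUNX2 share of the zinc finger genes and its difference from other chromosome 19 genes depended on the peaks kept and on the window. With a 3 kb window the share was 66.7% and the difference -1.13 points, and the MTA1 difference was 3.66 points (-2.82 to 9.65). Once peaks below the median score were dropped, the shares were 36.5% for RUNX2, 53.7% for MTA1 and 32.2% for both, the RUNX2 difference was -7.43 points, the median ranks were 73.8 and 85.1, and the RUNX2 difference at promoters with the fewest CpG was 2.19 points. With the 10000 highest-scoring peaks the shares were 9.80%, 35.7% and 9.41%, the differences -16.9 and -1.72 points, and the median ranks 93.3 and 89.2. Without peaks of the narrowest width the RUNX2 share was 48.6%, its difference -1.07 points, its median rank 67.8 and the share with both 46.7%. Limited to genes with no other gene end within 2 kb, the differences were 19.5 points for RUNX2 and 29.6 for MTA1, the median RUNX2 rank 54.7, and the differences at promoters with the fewest CpG 46.9 and 61.1 points and those at promoters with the most CpG -14.2 and -7.91 points, with intervals that include 0. At the far end in place of the start, the shares were 5.41% for RUNX2 and 4.50% for MTA1. Ranks refer to the full lists, so leaving out low-scoring peaks can only lower the shares and raise the median ranks. The 10000 highest-scoring peaks are also a larger part of the shorter MTA1 list, so this cut is less strict for MTA1. The cause of the other changes was not tested.

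A 500 bp window, peak centres, cluster gaps of 100 and 500 kb, the start alone, observed over expected CpG, and leaving out tandem families, hyphenated symbols or the cluster from ZNF737 to ZNF91 kept the direction of the values recomputed under each, and kept them inside the 95% interval of the reported value. Some still moved by more than 1.5 times: the RUNX2 difference was 8.37 points within 500 bp and 1.11 points without the tandem families, where the MTA1 difference was 6.91 points. The same held with genes on alternate sequences included (6.82 points for RUNX2 and 13.3 for MTA1) and with only the first and last gene of a cluster as its edge (17.4 and 14.9 points). The interval of the RUNX2 difference came to exclude 0 in the former and to include it in the latter. No paired analysis was possible because each antibody has 1 library. The planned protein features were not run, since no protein sequences were given.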

Other observations

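Other finger-coding genes and other duplicated families of the chromosome were counted in the same way. Of 19 chromosome 19 genes with another kind of C2H2 symbol, RUNX2 lay at 9 (47.4%, 24.4 to 71.1) and MTA1 at 7 (36.8%, 16.3 to 61.6), and both intervals include the shares of all other genes of the chromosome (53.9% and 53.4%). The RUNX2 interval also includes the share of the zinc finger genes (58.8%), and the MTA1 interval lies below theirs (65.1%). Both proteins lay at 7 genes: KLF16, ZBTB7A, WIZ, KLF2, ZBTB32, ZSCAN22 and MZF1. WIZ had a RUNX2 score of 67.0 and MZF1 one of 45.4. ZSCAN18 and ZBTB45 had RUNX2 only. Of 98 genes in the tandem families of olfactory receptors, kallikreins, CEACAM genes and others, RUNX2 lay at 12 (12.2%, 6.49 to 20.4) and MTA1 at 2 (2.04%, 0.248 to 7.18), which were CEACAM19 and KLK13, and the median RUNX2 rank was 21.0.

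Among 17 zinc finger genes with a divergent partner, RUNX2 and MTA1 each lay at 9 (52.9%), against 124 (60.5%) and 139 (67.8%) of 205 without one. The 33 zinc finger genes with no promoter sequence in the table had RUNX2 at 17 (51.5%) and MTA1 at 18 (54.5%).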
